A study of Mus musculus with 2 samples.

Results

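The Zbtb zinc finger factors were described in RNA sequencing of autoreactive CD4 T cells, with 1 library from 2.5HIP-PLG-treated and 1 from untreated mice. Members were all gene rows of the deposited table whose symbol begins with Zbtb and a digit, which gave 42 of 54532 rows. The family was chosen by name and on the measured ratio of Zbtb32 in these same 2 libraries, so the ratios are given as a description and not as a test. Of the 42 members, 39 had counts summing to at least 20 over both libraries and are called measured, while Zbtb7c, Zbtb8b and Zbtb10 fell below that and are given apart.

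Both libraries came from BDC-2.5 T cells, which carry a transgenic receptor against a pancreatic beta cell antigen. The cells had been activated and then transferred intravenously into NOD.scid mice, hosts without T and B cells of their own. In the 2.5HIP-PLG group, 1.75 mg of poly(lactide-co-glycolide) nanoparticles carrying the hybrid insulin peptide that this receptor recognises was injected intravenously 1 day after transfer, whereas the Untreated group was left without it. On day 6 after transfer CD4-positive, GFP-negative (Foxp3-negative) effector cells were sorted from spleen and lymph nodes and pooled over 4 mice per group. The ages of the mice were not given in the sources used here.

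BTB zinc finger proteins join an amino-terminal BTB domain, through which they pair and recruit corepressors, to carboxy-terminal C2H2 zinc fingers that read DNA. Many are repressors. In T cells the family is best known for fate decisions, with Zbtb7b (ThPOK) holding cells in the CD4 lineage and Zbtb16 (PLZF) driving innate-like T cells, while Zbtb32 (repressor of GATA, ROG) is induced on lymphocyte activation, binds Gata3 and restrains cytokine genes.

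The table held 22580671 counts for the 2.5HIP-PLG library and 26036666 for the Untreated library. Levels are given in CPM, counts divided by the library's total and expressed per 1000000. Ratios put 2.5HIP-PLG over Untreated and carry exact 95% intervals, which cover counting error only. To be called, a gene needed a difference of at least 1.5-fold and an interval that left out 1. With 1 library per group no difference has a replicate check, no p-value is given, and the calls describe these 2 libraries. In pooled bulk RNA, a change in the number of cells of one type and a change in RNA per cell cannot be told apart. All 12 CD4 T cell markers examined were abundant, summing to 10497 CPM in 2.5HIP-PLG cells and 8993 CPM in Untreated cells. Of these markers 0 were called, but the interval lay above 1 for 11 and below 1 for 1. Over all measured rows it lay above 1 for 24.3% and below 1 for 26.3%. The markers' median log2 ratio was 0.33 beside -0.01 over all measured rows, and its bearing on the Zbtb ratios was not tested.

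Zbtb32 was the member that stood furthest apart. It had 1463 counts in 2.5HIP-PLG cells (exact Poisson interval 1389 to 1540) and 318 in Untreated cells (284 to 355). In CPM this was 64.8 after 2.5HIP-PLG against 12.2 without treatment, a ratio of 5.30 (4.70 to 6.01). The ratio ranked 78 among all 13902 measured rows, and 13 among the 7022 rows whose counts summed to at least 1000.

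Within the family, Zbtb32 was a leading transcript after 2.5HIP-PLG and a minor one in Untreated cells. By CPM it ranked 5 of the 39 measured members in 2.5HIP-PLG cells and 29 in Untreated cells. It supplied 4.17% of all Zbtb counts after 2.5HIP-PLG (exact binomial interval 3.96 to 4.38) and 0.759% without treatment (0.678 to 0.846). Per kilobase of exons its level was 27.5 CPM per kb in 2.5HIP-PLG cells and 5.18 CPM per kb in Untreated cells, which put it at rank 2 and rank 20 of the members on that scale.

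The Zbtb32 counts were whole in both libraries, and no annotated gene overlaps the locus on chromosome 7 (30589681 to 30598909, minus strand, GRCm38). Its nearest measured neighbour, the histone methyltransferase gene Kmt2b, lies 955 bases away on the same strand and had 5391 counts after 2.5HIP-PLG against 6351 without (ratio 0.979, 0.944 to 1.02). The uroplakin gene Upk1a on the other side had 21 and 25 counts in the same order (0.969, 0.516 to 1.80). Neither flanking gene met the rule.

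**Figure D1:**
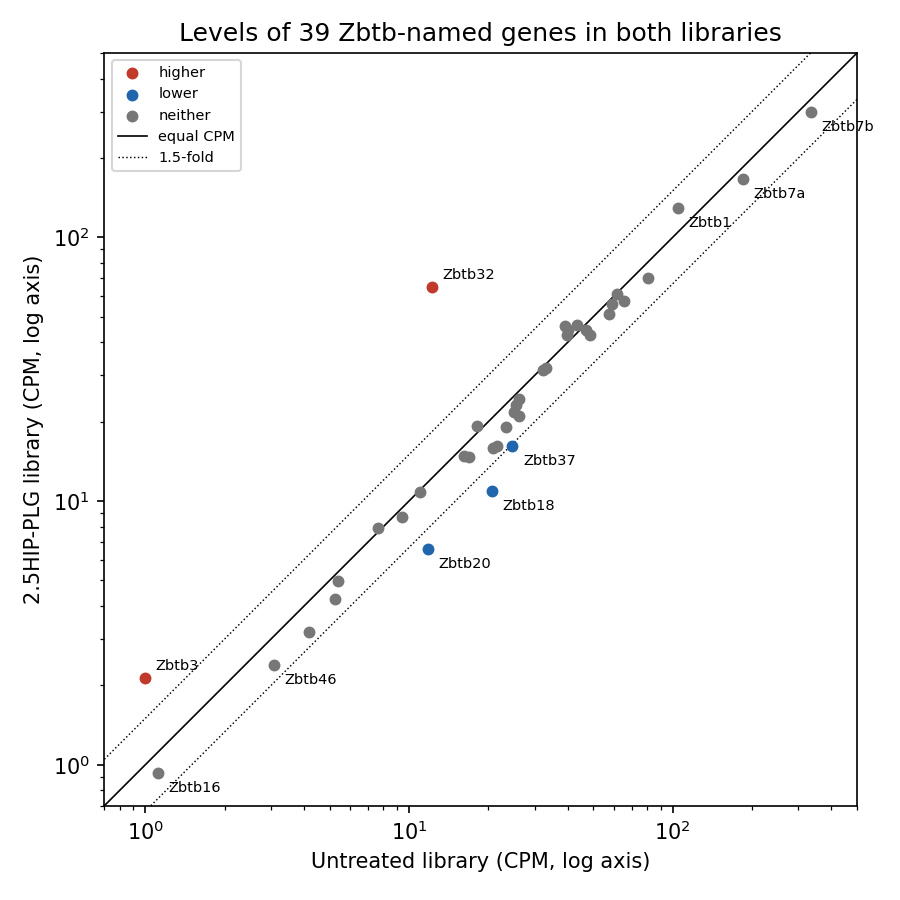
Levels of the 39 measured Zbtb-named genes, 1 point per gene, with CPM in the 2.5HIP-PLG library on the vertical axis and CPM in the Untreated library on the horizontal axis, both on log scales. Zbtb32 lies far above the 1.5-fold line at 64.8 CPM after 2.5HIP-PLG against 12.2 CPM in the Untreated library, whereas most members follow the line of equal CPM.

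The bases upstream of the Zbtb32 starts are shown because this gene carries the largest difference in the family, beside those of Zbtb3 (the other higher member) and Zbtb18 (the lowest ratio). Each is the 250 bases before a RefSeq transcript start (GRCm38.p6), written 5′ to 3′ on the gene's strand, and none of these bases lies in a GENCODE exon. For Zbtb3 and Zbtb18, which have 2 and 5 windows in the table, the most upstream one is printed. Capitals mark the CCAAT box, searched as CCAAT and its reverse complement ATTGG.
Zbtb32, distal start, chr7:30598910-30599159, minus strand: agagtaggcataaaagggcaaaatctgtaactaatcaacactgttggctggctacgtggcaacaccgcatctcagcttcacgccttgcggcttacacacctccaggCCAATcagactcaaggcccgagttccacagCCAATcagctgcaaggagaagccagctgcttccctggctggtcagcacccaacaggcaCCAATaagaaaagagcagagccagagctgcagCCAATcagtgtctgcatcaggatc
Zbtb32, proximal start, chr7:30592943-30593192, minus strand: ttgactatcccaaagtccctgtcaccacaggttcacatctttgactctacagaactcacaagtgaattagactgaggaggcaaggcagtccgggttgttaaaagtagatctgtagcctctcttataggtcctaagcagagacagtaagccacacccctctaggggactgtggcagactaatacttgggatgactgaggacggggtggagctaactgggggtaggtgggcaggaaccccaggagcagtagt
Zbtb3, chr19:8802263-8802512, plus strand: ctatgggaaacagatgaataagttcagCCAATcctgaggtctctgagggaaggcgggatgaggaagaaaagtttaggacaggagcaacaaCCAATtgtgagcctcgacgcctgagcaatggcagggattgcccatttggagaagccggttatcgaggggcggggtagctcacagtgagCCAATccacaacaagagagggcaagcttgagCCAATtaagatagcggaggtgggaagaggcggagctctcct
Zbtb18, chr1:177442101-177442350, plus strand: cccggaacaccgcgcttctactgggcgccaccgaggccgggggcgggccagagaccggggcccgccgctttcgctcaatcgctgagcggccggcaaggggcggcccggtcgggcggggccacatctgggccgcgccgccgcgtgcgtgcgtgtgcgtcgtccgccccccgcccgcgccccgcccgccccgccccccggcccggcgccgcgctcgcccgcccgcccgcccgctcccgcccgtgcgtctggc

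The distal Zbtb32 window held 4 CCAAT boxes, as did the printed Zbtb3 window, while the proximal Zbtb32 window and the printed Zbtb18 window held 0. Of the Zbtb18 windows not printed, 1 held 2 CCAAT boxes and the others 0, and the other Zbtb3 window, which overlaps the printed one, held 3. At least 4 CCAAT boxes were found in 276 of 32851 promoter windows of the same length (0.840%), and in 3 of the 50 windows that 37 members had in the table, the third being that of Zbtb5, which was called neither. This motif was picked after the sequences were seen. Among 181 measured genes with such a window, 5 were higher after 2.5HIP-PLG (2.76%), Zbtb32 and Zbtb3 included, and 5.52% were lower. The shares were 5.03% and 7.997% of the 9704 measured genes with any promoter entry. Whether the motif bears on the ratios was not tested. The letters of an NFAT core (GGAAA), an AP-1 site (TGACTCA) and an EGR site (GCGTGGGCG), searched on both strands, were in neither Zbtb32 window and were present in 55.6%, 4.46% and 0.536% of all windows.

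Beside Zbtb32, 1 further member was higher. Zbtb3, on chromosome 19 (8802555 to 8804846), had 48 counts in 2.5HIP-PLG cells (35.4 to 63.6) and 26 in Untreated cells (17.0 to 38.1). Its ratio was 2.13 with a wide interval of 1.30 to 3.57, and at 2.13 CPM after 2.5HIP-PLG against 0.999 CPM without treatment it was among the scarcest members in both libraries.

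The lower members were Zbtb18, Zbtb20 and Zbtb37. Zbtb18, a repressor known for its part in cortical neuron development, had 247 counts after 2.5HIP-PLG against 537 without treatment (10.9 and 20.6 CPM), 1.89-fold lower (1.62 to 2.20). Zbtb20, which represses alpha-fetoprotein in liver and supports long-lived plasma cells, had 148 and 308 counts in the same order (6.55 and 11.8 CPM), 1.80-fold lower (1.48 to 2.21). Both had whole counts. The Poisson intervals of the 2 libraries were separate for each, unlike those of Zbtb3, but they are of unscaled counts and the Untreated library was the deeper one.

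Zbtb37 had 365 counts in 2.5HIP-PLG cells and 643 in Untreated cells, 1.53-fold lower (1.34 to 1.74). Its counts were not whole, as happens where RSEM divides a read among genes, and its locus on chromosome 1 (161002922 to 161034849) overlaps the abundant noncoding gene Gas5 on the opposite strand. Gas5 had 2433 counts after 2.5HIP-PLG against 3082 without (0.910, 0.863 to 0.960), and since strand use is not stated the share of such reads in the Zbtb37 value was not tested. Zbtb37 was the called member closest to the fold limit at a ratio of 0.655, and Zbtb42 was the nearest one outside it at 0.749.

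The Zbtb20 locus on chromosome 16 (42875881 to 43642602) has a neighbour that differed the other way. Tigit, a coinhibitory receptor gene, lies 6265 bases away on the opposite strand and had 2723 counts in 2.5HIP-PLG cells and 1235 in Untreated cells (ratio 2.54, 2.38 to 2.72). A processed pseudogene within Zbtb20, BC002163, had 268 and 324 counts in that order (0.954, 0.808 to 1.12).

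In all, 2 of 39 measured members were higher, 3 were lower and 34 were neither. The background over all 13902 measured rows was 5.15% higher and 9.7% lower, and over 11805 protein-coding rows 5.12% and 7.89%, so the family's 5.13% and 7.69% lay near the background in both directions. Because the family was chosen with these values known, nothing further is read from that count.

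**Figure D2:**
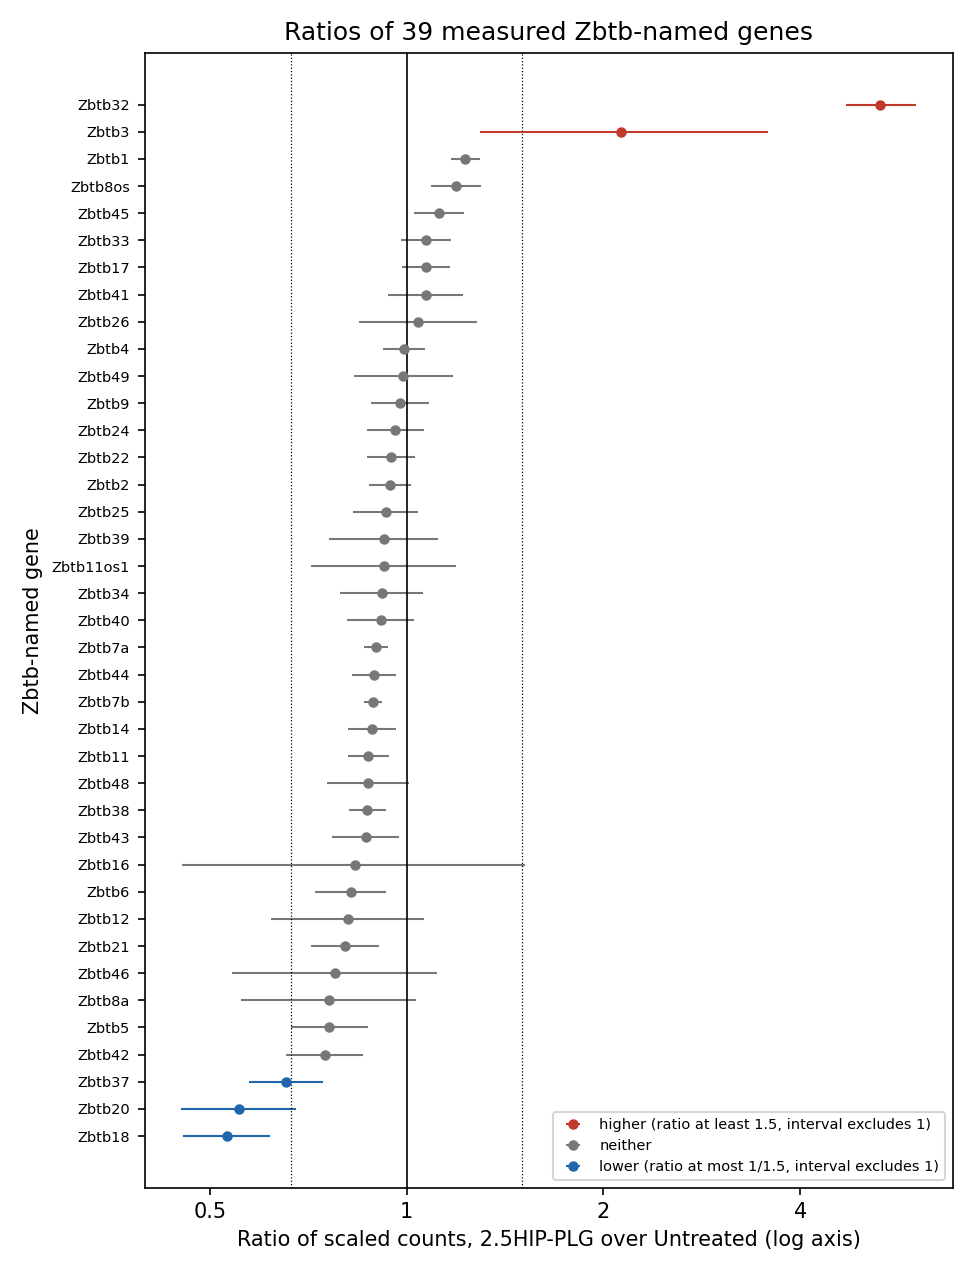
Ratio of scaled counts (2.5HIP-PLG over Untreated, log axis) for each of the 39 measured Zbtb-named genes, with exact 95% counting intervals as bars and dotted lines at the 1.5-fold limits. Zbtb32 at 5.30 and Zbtb3 at 2.13 lie above the upper limit, Zbtb37, Zbtb20 and Zbtb18 lie below the lower one, and the other 34 lie between 0.749 and 1.23.

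The members that were neither had ratios of 0.749 to 1.23 and leaned slightly to the Untreated library. Of the 39 measured members 30 had a ratio below 1 (76.9%), compared with 51.5% of all measured rows and 56.8% of 336 measured genes named Zfp, the larger C2H2 zinc finger group. Among BTB genes without zinc fingers the share was 76.2% of 21 named Klhl, 57.1% of 7 named Kbtbd and 30% of 10 named Btbd. A lean of this size was therefore shared by the Klhl genes, though not by BTB genes at large. The share was 60.5% over the 38 measured Klhl, Kbtbd and Btbd genes together. It was 42.9% of the 7 measured BTB zinc finger genes that carry other symbols. The median log2 ratio of the members was -0.13, against -0.01 over all rows and -0.04 over the Zfp genes. The interval lay below 1 for 14 members and above 1 for 5 (35.9% and 12.8%), against 26.3% and 24.3% of all measured rows, and spanned 1 for 20. Summed over the 42 members, the level was 1554 CPM in 2.5HIP-PLG cells and 1610 CPM in Untreated cells, and without Zbtb32 it was 1490 CPM and 1598 CPM in the same order.

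The factors of the CD4 lineage were the most abundant members and differed little. Zbtb7b, which encodes ThPOK, had 6733 counts after 2.5HIP-PLG against 8732 without treatment (298.2 and 335.4 CPM; ratio 0.889, 0.861 to 0.918). It ranked first by CPM in both libraries and made up 19.2% of Zbtb counts in 2.5HIP-PLG cells and 20.8% in Untreated cells. Zbtb7a, or LRF, which acts beside ThPOK in CD4 cells, had 3755 and 4822 counts in the same order (166.3 and 185.2 CPM; 0.898, 0.860 to 0.937). For both genes the interval excluded 1 on the low side, but the size was far short of the rule.

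Zbtb1, needed for lymphoid development, leaned the other way. It had 2919 counts in 2.5HIP-PLG cells and 2736 in Untreated cells (129.3 and 105.1 CPM; ratio 1.23, 1.17 to 1.30), the highest ratio among the members that were neither. Zbtb17, or Miz1, which partners Myc and supports interleukin 7 signalling in lymphoid progenitors, had 1046 and 1127 counts in that order (1.07, 0.983 to 1.17). The third place by CPM was held by Zbtb1 in both libraries.

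Zbtb24, whose human counterpart is mutated in an immunodeficiency syndrome with centromere instability, had 720 counts after 2.5HIP-PLG against 864 without (0.961, 0.869 to 1.06). Zbtb25, reported in human T cells as a repressor of NFAT targets, had 550 and 683 counts in the same order (0.929, 0.828 to 1.04). Both intervals spanned 1, so at this depth no difference was detectable for either gene.

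The methyl-CpG binding members were well expressed. Zbtb38 had 1583 counts in 2.5HIP-PLG cells and 2097 in Untreated cells (70.1 and 80.5 CPM; ratio 0.870, 0.815 to 0.930). Zbtb4 had 1377 and 1603 counts in that order (0.990, 0.921 to 1.07). Zbtb33, or Kaiso, had 963 and 1036 counts, not whole before rounding (1.07, 0.981 to 1.17). None of these 3 reached the size of a call.

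Members that mark other lymphoid and myeloid cells were scarce. Zbtb16, the PLZF gene of innate-like T cells, had 21 counts after 2.5HIP-PLG against 29 without (0.930 and 1.11 CPM; ratio 0.835, 0.453 to 1.52). Zbtb46, a marker of classical dendritic cells, had 54 and 80 counts in the same order (2.39 and 3.07 CPM; 0.778, 0.541 to 1.11). Zbtb16 had the lowest count sum of the measured members, and the nearest member below the minimum was Zbtb10.

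The low-count members gave no usable ratio. Zbtb10 had 10 counts in 2.5HIP-PLG cells and 8 in Untreated cells, with an interval of 0.512 to 4.20. Zbtb7c had 3 and 5 counts in that order (0.692, 0.107 to 3.56). Zbtb8b had 0 in both, which allows a level of up to 0.133 CPM in 2.5HIP-PLG cells and 0.115 CPM in Untreated cells for counting error alone.

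Compared per kilobase of exons, the members spanned a wide range in both libraries. Zbtb7b led with 53.3 CPM per kb after 2.5HIP-PLG against 59.98 CPM per kb without treatment, and Zbtb7a had 24.4 and 27.2 CPM per kb in the same order. Zbtb32, at 27.5 CPM per kb after 2.5HIP-PLG, stood just above Zbtb7a in that library, whereas in the Untreated library its 5.18 CPM per kb was well below the Zbtb7a level. Zbtb16 was last in both, at 0.176 CPM per kb after 2.5HIP-PLG against 0.211 CPM per kb without. Exon lengths are those of the annotation, where the union of all transcripts reaches 30730 bases for Zbtb20 and 2357 for Zbtb32, so members with long alternative exons are set low on this scale.

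**Figure D3:**
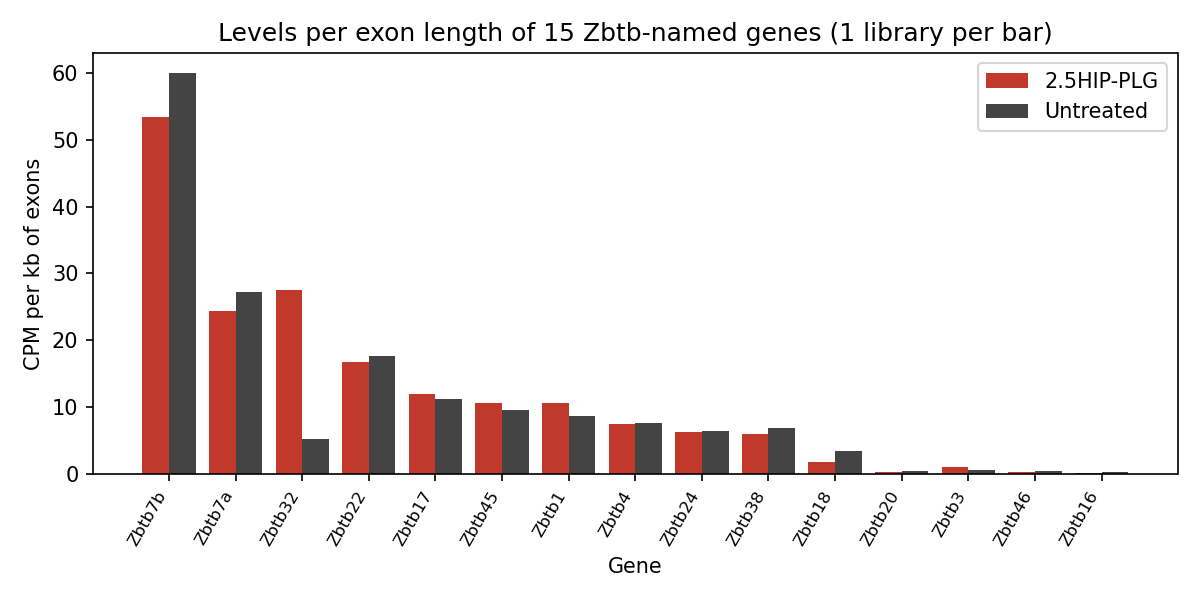
Level in CPM per kb of exons for 15 Zbtb-named genes, with the 2.5HIP-PLG library left of the Untreated library for each gene and 1 library per bar, so no error bars. Zbtb32 reaches 27.5 CPM per kb in the 2.5HIP-PLG library against 5.18 CPM per kb in the Untreated library, while Zbtb7b stays the highest in both.

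The remaining measured members lay between these extremes. Those with an interval wholly below 1 but short of a call included Zbtb11 (1295 counts after 2.5HIP-PLG against 1708 without; ratio 0.874, 0.813 to 0.940), Zbtb5 (358 and 542; 0.762, 0.665 to 0.872), Zbtb42 (364 and 560; 0.749, 0.655 to 0.857) and Zbtb21 (474 and 679; 0.805, 0.714 to 0.906). Zbtb45 leaned up, with 1010 counts in 2.5HIP-PLG cells and 1040 in Untreated cells (1.12, 1.03 to 1.22).

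Several further members stayed close to equal, with intervals that all spanned 1. Zbtb2 was the most abundant of them, with 1258 counts after 2.5HIP-PLG against 1538 without treatment (0.943, 0.875 to 1.02). Zbtb22 had 1006 and 1225 counts in that order (0.947, 0.870 to 1.03), and its locus overlaps the MHC loading factor gene Tapbp on the same strand (11873 and 11563 counts; 1.18, 1.15 to 1.21). Zbtb9 had 710 and 838 (0.977, 0.883 to 1.08), Zbtb41 had 436 and 470 (1.07, 0.937 to 1.22), Zbtb49 had 245 and 286 (0.988, 0.829 to 1.18) and Zbtb26 had 179 and 198 (1.04, 0.847 to 1.28).

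The other measured members leaned to the Untreated library without a call. Among them the interval excluded 1 for Zbtb44 (1158 counts after 2.5HIP-PLG against 1498 without; 0.891, 0.825 to 0.963), Zbtb14 (966 and 1260; 0.884, 0.812 to 0.962), Zbtb43 (491 and 654; 0.866, 0.768 to 0.975) and Zbtb6 (433 and 608; 0.821, 0.724 to 0.930). Zbtb6 overlaps Zbtb26 on the same strand, and neither had whole counts, so the division of reads between this pair is uncertain. The interval spanned 1 for Zbtb40 (523 and 661; 0.912, 0.812 to 1.02), Zbtb34 (334 and 420; 0.917, 0.792 to 1.06), Zbtb48, a telomere-binding factor in human cells (333 and 440; 0.873, 0.755 to 1.01), Zbtb39 (197 and 246; 0.923, 0.762 to 1.12) and Zbtb12 (96 and 136; 0.814, 0.620 to 1.06).

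A pair of rows fit the naming rule without being BTB zinc finger genes. Zbtb8os encodes archease, a helper of tRNA ligation, and had 1045 counts after 2.5HIP-PLG against 1013 without treatment (ratio 1.19, 1.09 to 1.30). It overlaps Zbtb8a on the opposite strand, which had 72 and 109 counts in that order (0.762, 0.558 to 1.04), and both had counts that were not whole. Zbtb11os1, an antisense transcript of Zbtb11, had 112 and 140 counts (0.922, 0.713 to 1.19). Another gene overlaps 23 of the 42 members in the annotation, 17 of them by a measured gene, and 12 members had counts that were not whole.

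Across the 39 measured members the log2 ratio had a Spearman rho of 0.31 with mean CPM and -0.17 with exon length, given as descriptions since all members come from the same 2 libraries. With log2 of each feature, the Pearson r was 0.08 for mean CPM and -0.38 for exon length. Which feature tracked the ratio more therefore depended on the measure, and neither ordered the members closely.

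BTB zinc finger genes that carry other symbols were not called. Of 8 such genes, 7 were measured, with 0 higher and 0 lower and a median log2 ratio of 0.12 beside -0.01 over all rows. Over all measured rows 5.15% were higher and 9.7% lower. Bcl6, the repressor that directs follicular helper T cells, came nearest with 766 counts in 2.5HIP-PLG cells and 608 in Untreated cells (ratio 1.45, 1.30 to 1.62). Hic1 had 725 and 628 counts in that order (1.33, 1.19 to 1.48). Patz1, or MAZR, which represses the ThPOK gene in CD8 lineage thymocytes, had 826 and 1069 counts, not whole before rounding (0.891, 0.813 to 0.977). Mynn had 734 and 777 counts (1.09, 0.983 to 1.21). Zfp131 was the most abundant, with 1229 and 1459 counts (0.971, 0.900 to 1.05).

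Most corepressors that BTB domains recruit were not called. Of 19 corepressor and Cul3 genes, all measured, 1 was higher, 2 were lower and 16 were neither, and the median log2 ratio was 0.04 beside -0.01 over all rows. The shares of 5.26% higher and 10.5% lower were near the 5.15% and 9.7% of all measured rows. Hdac7, a class IIa histone deacetylase of T cells, had 7142 counts after 2.5HIP-PLG against 5405 without treatment (ratio 1.52, 1.47 to 1.58). Its relative Hdac9 had 24 and 67 counts in the same order (0.413, 0.248 to 0.667), and the corepressor gene Bcorl1 had 374 and 727 (0.593, 0.522 to 0.673). Ncor1, the largest of the list by counts, had 10083 and 13439 (0.865, 0.843 to 0.888), and Cul3, a ubiquitin ligase scaffold bound by BTB domains, had 4088 and 4598 (1.03, 0.983 to 1.07).

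Partners and reported targets of Zbtb32 did not differ in one direction. Of 11 genes, 8 were measured, with 1 higher, 0 lower, 7 neither, and the median log2 ratio was -0.07 beside -0.01 over all rows. As shares this was 12.5% higher and 0% lower, against 5.15% and 9.7% of all measured rows. Gata3, the factor that Zbtb32 binds, had 2565 counts in 2.5HIP-PLG cells and 4067 in Untreated cells (ratio 0.727, 0.692 to 0.764), with counts that were not whole. Nfatc1, a calcium-regulated factor, was the higher gene with 15800 and 8931 counts in that order (2.04, 1.99 to 2.09).

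Nfatc2 had 4494 counts after 2.5HIP-PLG against 6397 without (0.810, 0.780 to 0.842), and Nfatc3 had 10141 and 12325 (0.949, 0.924 to 0.974). Prdm1, which encodes Blimp-1 and acts with Zbtb32 on Ciita in plasma cells, had 920 and 902 counts in the same order (1.18, 1.07 to 1.29). Ciita, the regulator of MHC class II genes, had 30 counts in each library (1.15, 0.672 to 1.98). Of the cytokine genes in the list, Ifng had 1947 and 2331 counts, not whole before rounding (0.963, 0.906 to 1.02), and was near equal. The other cytokine genes were nearly silent, so no difference in them was detectable at this depth. Il2 had 13 and 19 counts (0.789, 0.358 to 1.68), Il4 0 and 2, Il5 1 and 0 and Il13 2 and 1.

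In the list of the ThPOK circuit 9 of 10 genes were measured, of which 2 were higher, 0 lower and 7 neither. That is 22.2% higher and 0% lower on a short list, against 5.15% and 9.7% of all measured rows. The median log2 ratio was 0.24 beside -0.01 over all rows. The higher genes were Tox, a nuclear factor needed for CD4 lineage development, with 5400 counts after 2.5HIP-PLG against 911 without (6.83, 6.37 to 7.34), and Myb, with 941 and 537 (2.02, 1.82 to 2.25; counts not whole). Runx3, which opposes ThPOK in the CD8 lineage, had 4227 and 7225 counts in the same order (0.675, 0.649 to 0.701), just short of a call. Cd4 itself had 41743 and 39739 counts (1.21, 1.19 to 1.23), and Cbfb, the shared partner of Runx factors, had 5295 and 5167 (1.18, 1.14 to 1.23). Cd8a had 0 and 9 counts, below the minimum, whereas Cd8b1 had 304 and 272 (1.29, 1.09 to 1.52) and was neither. Runx1 had 2756 and 3116 (1.02, 0.969 to 1.07).

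For Miz1 (Zbtb17), 8 partner and target genes were measured, with 1 higher, 1 lower and 6 neither. Each call is 12.5% of this short list, against 5.15% higher and 9.7% lower over all measured rows. The median log2 ratio was -0.03 beside -0.01 over all rows. Il7r, the interleukin 7 receptor chain, was lower with 3176 counts after 2.5HIP-PLG against 10814 without (0.339, 0.325 to 0.352). Cdkn2b, a cell cycle inhibitor, was higher on 57 and 38 counts in that order (1.73, 1.13 to 2.68). Rpl22, a ribosomal protein gene, had 5523 and 5567 counts, not whole before rounding (1.14, 1.10 to 1.19). Myc had 1115 and 1734 counts (0.741, 0.687 to 0.800) and Bcl2 had 2788 and 4468, not whole before rounding (0.719, 0.686 to 0.755).

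**Figure D4:**
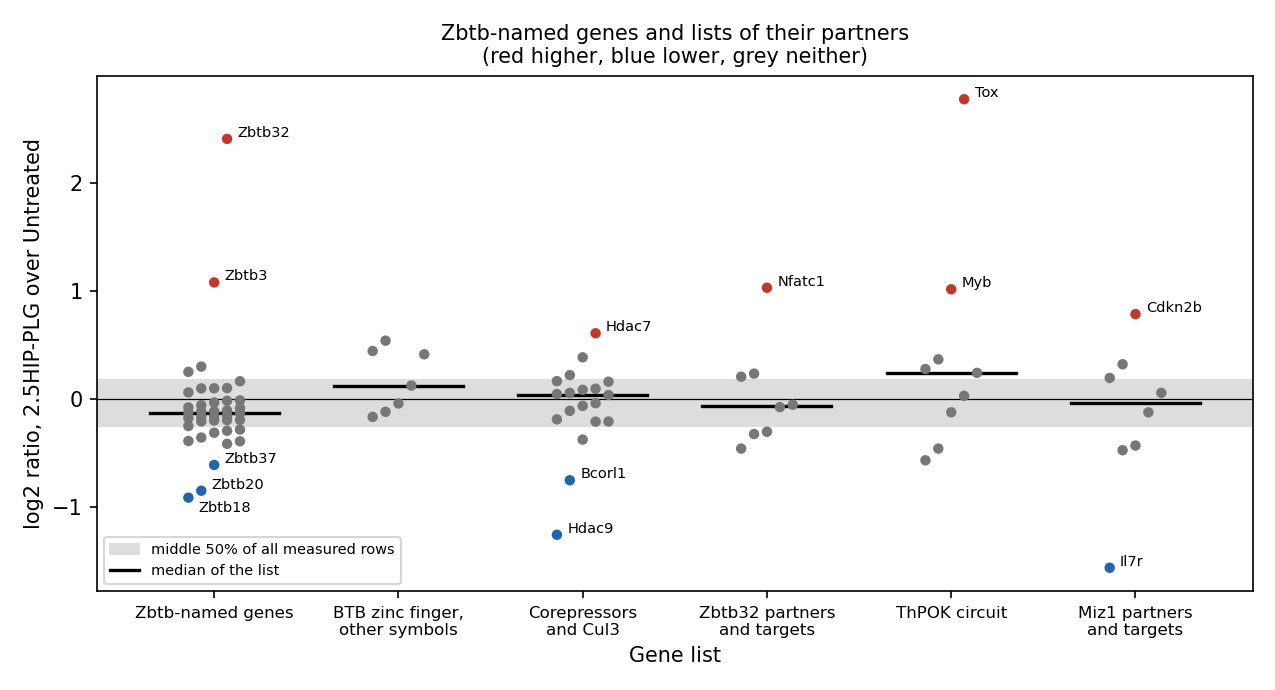
Log2 ratio (2.5HIP-PLG over Untreated) of each measured gene in the Zbtb family and in 5 lists of relatives and partners, with the median of each list as a bar and the middle 50% of all measured rows as a grey band. Zbtb32 is exceeded only by Tox among the genes shown, and the list medians lie between -0.13 and 0.24.

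Markers of other cells that use Zbtb32, Zbtb16 or Zbtb46 also differed between the libraries. Zbtb32 is expressed in activated B and NK cells too. The 10 B and plasma cell markers summed to 186.4 CPM in 2.5HIP-PLG cells and 117.5 CPM in Untreated cells, mostly from Ighm (3761 and 2641 counts), and of 4 measured markers Ighm and Cd22 (389 and 228) were higher, and Sdc1 (28 and 95) and Igkc (22 and 73) were lower. The others named were at or near 0, with Ms4a1 and Jchain at 0 in both, Pax5 at 1 and 6 and Cd79a at 2 and 3.

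The 8 NK cell markers summed to 165.0 CPM after 2.5HIP-PLG against 648.8 CPM without treatment, with 3 higher and 3 lower. Gzma (2528 and 15968 counts) supplied 112.0 CPM and 613.3 CPM of these sums in that order. The lower sum after 2.5HIP-PLG therefore rests on Gzma and does not describe the other markers. Ncr1, the defining NK receptor, had 54 and 96 counts in the same order and was lower, as was Klrb1c (21 and 52, not whole). The higher ones were Eomes (735 and 360), a factor found in some T cells too, Klra8 (80 and 7) and Klra4 (52 and 26), the last 2 not whole before rounding. The 10 markers of innate-like and gamma-delta T cells summed to 98.8 CPM and 188.0 CPM, with 0 higher and 6 lower, and the 11 dendritic cell markers to 81.4 CPM and 111.8 CPM, with 0 of 8 measured ones higher and 2 lower. The 11 myeloid markers summed to 48.7 CPM and 26.4 CPM, with 6 of 9 measured ones higher and 0 lower. For comparison with all these marker sets, 5.15% of all measured rows were higher and 9.7% lower. The part of these cells in the Zbtb values was not tested.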

How the data were processed

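Counts from 2 libraries of sorted cells were used, 1 per group, grouped by their treatment label. The library kit was NuGen's Universal Plus mRNA, per the labels' protocols. The submitters' processing notes name STAR, RSEM 1.3.1 and the build GRCm38. Not given in the sources used here are the STAR version, the annotation and the use of strand. Expected counts were deposited by the authors, estimates that divide shared reads among genes. They were not whole in 11.1% of 2.5HIP-PLG rows and 11.8% of Untreated rows, and were rounded here.

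Counts were scaled by column total. Ratios and exact conditional binomial (Clopper-Pearson) 95% intervals were computed with scipy 1.17.1, numpy 2.4.6 and pandas 2.3.3 in Python 3.11.15, and tested on simulated data. Log2 ratios used 0.5 added counts. No molecular identifiers are described, so intervals and limits for a count of 0 (3 counts) cover counting error only. Gene positions and exon lengths came from GENCODE M21 (GRCm38), which holds all 42 members, and promoters from RefSeq (GRCm38.p6). Protein sequence features were not analysed here.

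Named genes were members called in either direction, members with lymphocyte or methyl-CpG roles, the 5 most abundant members, and called or abundant genes of the lists. Other genes were picked once their values had been seen, such as Tapbp, Hic1, Runx1, Klhl6, Kbtbd11, Klhl8, Tigit, Gas5, Kmt2b, Upk1a and BC002163. The members and lists were chosen with earlier results of these data known. Alternatives were scaling by edgeR 4.0.16 (TMM, upper quartile) and DESeq2 1.42.0 size factors in R 4.3.3, other count minimums, a ratio of 2, a 99% interval, no interval, unrounded counts and protein-coding rows. A few list genes are counted but not reported singly. Figures used matplotlib 3.10.9.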

Additional observations from a re-analysis of the deposited data

How the results depend on the processing

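The higher and lower counts of 2 and 3 members stayed within 1.5 times under TMM, DESeq2 and upper quartile scaling, count minimums of 10 or none, a 99% interval, no interval, unrounded counts and protein-coding rows. With a count sum of at least 100, 1 member was higher, since Zbtb3 drops out. With a ratio of at least 2, 0 members were lower. Alternatives chosen after seeing the data left 1 member higher without Zbtb32, 2 higher and 2 lower among members with whole counts, and a median log2 ratio of -0.16 without Zbtb8os and Zbtb11os1. Otherwise the median ranged from -0.15 under upper quartile scaling to -0.12 under DESeq2 scaling. The ratio of Zbtb32 was 5.24 to 5.35 over the ways of scaling, and that of Zbtb3 2.10 to 2.15. The other settings could not move these 2 ratios, since they alter only the calls or the rows kept and both genes have whole counts. At a ratio of 2, Zbtb18, Zbtb20 and Zbtb37 were no longer called, and 2 Zfp genes were higher and 7 lower, against 12 and 22 at 1.5. Depth limits Zbtb3, Zbtb16 and Zbtb46 most. No paired analysis was possible because each group has 1 library, and no library could be left out.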

Other observations

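BTB proteins without zinc fingers, most of them adaptors that bring substrates to Cul3 ubiquitin ligases, were looked up by symbol after the data were seen. Of 89 rows named Klhl, Kbtbd or Btbd, 38 were measured, with 0 higher, 1 lower and 37 neither and a median log2 ratio of -0.04. That is 0% higher and 2.63% lower, against 5.15% and 9.7% of all measured rows. The median differed by name, at -0.15 for Klhl, -0.03 for Kbtbd and 0.12 for Btbd. Klhl8 was the lower one, with 36 counts in 2.5HIP-PLG cells and 101 in Untreated cells (2.43-fold, 1.65 to 3.67). Klhl6, an adaptor known from B cells, had 2381 counts after 2.5HIP-PLG against 3784 without treatment (ratio 0.726, 0.689 to 0.764). Kbtbd11 was the most abundant, with 7926 and 8573 counts in that order, not whole before rounding (1.07, 1.03 to 1.10). Summed over the 89 rows the level was 1364 CPM in 2.5HIP-PLG cells and 1417 CPM in Untreated cells.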
